A study of Mus musculus with 32 samples.

Results

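The proneural and early neuron genes considered here were Neurog1, Neurog2, Neurod1, Neurod4, Tubb3, Dcx, Elavl3, Stmn2 and Nsg2, matched by Ensembl identifier and GRCm38 symbol to the expression tables of forebrain (Fb) and midbrain (Mb) tissue from mouse embryos at E9.5. Of the 9 genes, 8 were measured among 48576 identifiers, and Tubb3 was not analysed here. RNA-seq had been made from 32 libraries of B6C3F1 embryos, and for each tissue there were 6 wild-type (WT), 4 TKO_Ex, 3 DKO_Ex and 3 DKO_CD libraries. TKO_Ex are triple knockouts of the type II cadherins Cdh6, Cdh8 and Cdh11 (the exencephaly, an open cranial neural tube, is named in the study's methods and not in the sample labels), DKO_Ex are labelled Cdh8/11 double knockouts with exencephaly, and DKO_CD are labelled Cdh6/8 double knockouts with a cranial defect, while the study's methods call them Cdh8/11 double knockouts without exencephaly, picked for an elongated Mb, so that both DKO groups were divided by phenotype. All mutant alleles were germline deletions made with CRISPR/Cas9 in the exon holding the start codon, so that the transcript may remain, and mutants came from triple heterozygous matings whereas WT embryos came from separate WT matings; the genotype and the mating therefore cannot be told apart. In the 12 DKO libraries the column heading names the other DKO group than the record that lists the file. The headings were followed; under the records every value given below for DKO_Ex in comparison with WT would be that of DKO_CD and the reverse.

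Neurons arise from neuroepithelial progenitors when proneural basic helix-loop-helix (bHLH) factors overcome Notch-driven repression. Neurog1 and Neurog2 are such factors and start the programme, and Neurod1 and Neurod4 are bHLH factors that act after them as cells leave the cell cycle. Newborn neurons then make the RNA-binding protein Elavl3 (HuC), the microtubule-binding protein Dcx, the microtubule-destabilising growth cone protein Stmn2 (SCG10) and Nsg2, a small membrane protein of neuronal endosomes. At this stage the Mb holds some of the first neurons of the brain. Nsg2 was in the list because it had been singled out in the study, from these same libraries, as lower in the exencephalic Mb, so its own mutant values are given as a description and not as a test. The question was whether the other early neuron genes moved with it.

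Because bHLH factors bind the E-box CANNTG, the 250 bases before the annotated start were searched for it; the motif reads the same on both strands. RefSeq promoters on GRCm38.p6 were found for 7 of the 8 measured genes (no entry for Stmn2). They are shown for Nsg2, with the most E-boxes among these genes, for Elavl3, a neuronal gene whose values lay within the WT range in the DKO_Ex Mb, where those of Nsg2 lay below it, and for Neurog1, an upstream factor whose promoter held no match. E-boxes are in capitals, and each sequence is written 5′ to 3′ on the gene's strand.
Nsg2, chr11:32000169-32000418, plus strand: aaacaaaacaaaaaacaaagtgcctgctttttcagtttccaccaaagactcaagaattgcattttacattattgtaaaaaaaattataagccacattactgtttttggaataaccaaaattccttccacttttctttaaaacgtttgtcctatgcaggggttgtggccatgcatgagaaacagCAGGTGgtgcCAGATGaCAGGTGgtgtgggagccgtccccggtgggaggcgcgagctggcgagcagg
Elavl3, chr9:22052024-22052273, minus strand: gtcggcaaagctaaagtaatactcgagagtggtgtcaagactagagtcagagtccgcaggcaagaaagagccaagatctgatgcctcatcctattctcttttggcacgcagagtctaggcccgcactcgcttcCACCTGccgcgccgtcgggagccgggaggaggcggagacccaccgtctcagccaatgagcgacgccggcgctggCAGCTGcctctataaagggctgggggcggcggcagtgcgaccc
Neurog1, chr13:56252181-56252430, minus strand: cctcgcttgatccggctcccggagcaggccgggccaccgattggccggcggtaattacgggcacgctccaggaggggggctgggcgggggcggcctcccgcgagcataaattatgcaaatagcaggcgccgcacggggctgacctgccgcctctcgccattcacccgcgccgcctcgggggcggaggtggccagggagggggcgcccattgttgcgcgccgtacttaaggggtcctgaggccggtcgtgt
Nsg2 held 3 E-boxes beginning -67, -57 and -50 bases from the start, the middle one of them CAGATG. Elavl3 held 2, at -117 and -43, and Neurod1 held 1 (CATATG at -242). A second annotated start of Nsg2, inside the gene, had 1. No match was found in the windows of Neurog1, Neurog2, Neurod4 and Dcx. Among 32536 distinct promoters of the same length, 66.2% held at least 1 E-box, 12.2% at least 3 and 14.4% a CAGATG, so that such matches are common and describe the letters of these windows only.

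Levels are given as deposited, in FPKM, a fragment count scaled by transcript length and by library depth. Each library rested on 1.96 to 3.26 M fragments as estimated from the values themselves, and every TKO_Ex Mb library (1.96 to 2.315 M) was shallower than every WT Mb library (2.395 to 2.92 M). Every DKO_Ex Mb library (3.085 to 3.26 M) was deeper than every WT Mb library. The tissue labels were checked with regional genes: En1, a Mb gene, was at 19.1 to 65.5 FPKM in 15 Mb libraries, at 3.57 FPKM in WT Mb replicate 5 and at most 2.09 FPKM in the 16 Fb libraries. Cdh6 was at 0.345 to 0.388 FPKM in 3 TKO_Ex Mb libraries but at 3.10 FPKM in the library labelled TKO_Ex replicate 3, within the 1.04 to 3.55 FPKM of WT. For the Fb of TKO_Ex replicates 1 to 4, Cdh6 levels were 1.84, 0.766, 3.74 and 0.572 FPKM, so that the library labelled TKO_Ex replicate 3 was again within the WT range of 2.04 to 4.0 FPKM and replicate 1 was close below it. These libraries are therefore named where a result rests on them. In the DKO_CD Mb, Cdh6 was at 1.76, 2.11 and 1.29 FPKM, within the WT range. In the DKO_CD Fb it was at 3.43, 1.72 and 2.78 FPKM, of which 1.72 FPKM lay below the WT range. The DKO_Ex libraries held 1.86 to 3.12 FPKM of Cdh6 in the Mb and 3.62 to 4.34 FPKM in the Fb. Which of the genotype names given for DKO_CD holds was not tested.

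In WT embryos all 8 measured genes were higher in the Mb than in the Fb. Over all genes tested, 4.66% were higher in the WT Mb (622 of 13344, limma, Benjamini-Hochberg adjusted p under 0.05), against 8 of 8 here. On the scale of log2(FPKM + 1), used for every fold change below, the rise ran from 1.35 for Neurog2 to 2.82 for Neurog1, with a median of 1.76 against 0.00 for all genes tested. For every gene the lowest WT Mb library lay above the highest WT Fb library, a separation that was not counted over all genes. All 8 passed under each alternative normalization, filter and left-out library, including without WT Mb replicate 5, where En1 was low.

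Among the proneural factors, Neurog1 (ENSMUSG00000048904, chr13:56250478-56252163) was at 14.5, 27.5, 15.1, 13.2, 27.5 and 15.4 FPKM in WT Mb replicates 1 to 6. In the WT Fb it was at 2.73, 0.996, 1.08, 4.0, 0.621 and 1.98 FPKM. The Mb values thus fell into a lower set of 4 libraries and a higher pair, and none reached down to the Fb. The log2 fold change was 2.82 (SE 0.28, limma adjusted p = 2.31e-05). Neurog2 (ENSMUSG00000027967, chr3:127633135-127635631) ranged over 6.98 to 12.3 FPKM in the WT Mb (median 9.17) and at 1.97 to 5.80 FPKM in the WT Fb (median 2.81). Its margin between the tissues was the narrowest of the 4 bHLH genes on this scale, with a log2 fold change of 1.35 (SE 0.21, limma adjusted p = 0.00102).

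The later bHLH factors were almost silent in the Fb. Neurod1 (ENSMUSG00000034701, chr2:79452521-79456751) was at 4.81 ± 2.18 FPKM in the WT Mb and 0.715 ± 0.421 FPKM in the WT Fb (SD, n = 6 each), a log2 fold change of 1.71 (SE 0.26). Neurod4 (ENSMUSG00000048015, chr10:130268152-130280240) was at 4.81 ± 1.78 FPKM in the WT Mb and 0.307 ± 0.273 FPKM in the WT Fb (SD, n = 6 each), a log2 fold change of 2.11 (SE 0.24). In the WT Fb these levels stand for 2 to 10 fragments of Neurod1 and 0 to 7 of Neurod4 per library, against 17 to 61 and 17 to 63 in the WT Mb, so that Fb ratios of these genes carry a large counting error.

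Of the genes of newborn neurons, Stmn2 (ENSMUSG00000027500, chr3:8509360-8561606) had the highest level per length in the WT Mb, 25.9 ± 6.94 FPKM, against 3.9 ± 1.85 FPKM in the WT Fb (SD, n = 6 each). Its log2 fold change of 2.51 (SE 0.26) was the second largest after Neurog1. Nsg2 (ENSMUSG00000020297, chr11:32000463-32059202) was at 19.7 ± 3.51 FPKM in the WT Mb and 5.17 ± 1.24 FPKM in the WT Fb (SD, n = 6 each), with a log2 fold change of 1.75 (SE 0.15, limma adjusted p = 4.51e-06). It was the most abundant of the 8 genes in the Fb, and its spread within the WT Mb was the smallest for its level. Elavl3 (ENSMUSG00000003410, chr9:22015005-22052023) was at 9.04 ± 2.80 FPKM in the WT Mb and 1.97 ± 0.953 FPKM in the WT Fb, and Dcx (ENSMUSG00000031285, chrX:143855842-143933311) was at 2.34 ± 0.940 and 0.254 ± 0.130 FPKM, respectively (SD, n = 6 each). In the order of WT Mb levels (Stmn2, Nsg2, Neurog1, Neurog2, Elavl3, Neurod4, Neurod1, Dcx), Neurog1 and Neurog2 were the only neighbours whose library ranges did not overlap.

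**Figure D1:**
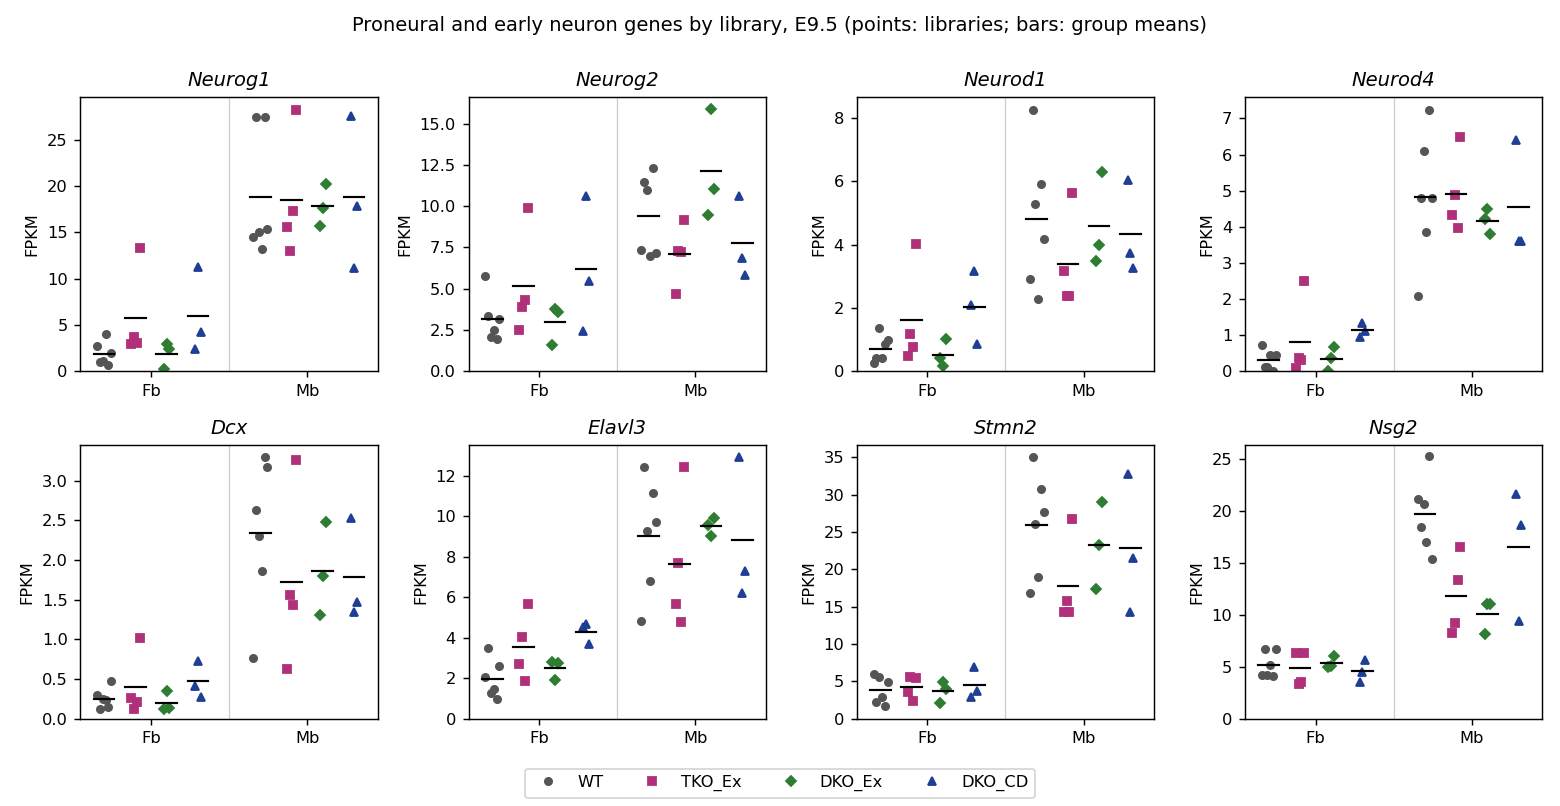
FPKM (vertical axes, linear, from 0) of the 8 measured genes in each library of the Fb and Mb, with 1 point per library, colours for WT, TKO_Ex, DKO_Ex and DKO_CD and black bars for group means. In WT every Mb point lies above every Fb point for each gene, and Nsg2 is the gene whose 3 DKO_Ex Mb points (8.1 to 11 FPKM) all lie below the 6 WT Mb points (15.3 to 25.3 FPKM). Nsg2 had been chosen for its low values in these libraries.

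The wider neurogenic programme was read in lists of related genes. Of 18 tested genes of neuronal commitment (Notch ligands, cell cycle exit and transcription factors of newborn neurons), 16 were higher in the WT Mb and 0 lower, with a median log2 fold change of 1.22. Dll3, a Delta family protein of differentiating cells, rose by 2.50 (SE 0.29), Gadd45g by 2.28 (SE 0.18), Nhlh1 by 2.28 (SE 0.30) and Srrm4, a neuronal splicing factor, by 1.77 (SE 0.17). Of 28 other early neuron genes 18 were higher and 0 lower (median 1.0), led by the neurofilament genes Nefm (2.56, SE 0.27) and Nefl (2.14, SE 0.27) and followed by Ina (1.94, SE 0.24) and Elavl4 (1.89, SE 0.18). Nsg1, the paralogue of Nsg2, did not pass (0.31, SE 0.18, limma adjusted p = 0.370), with 17.2 ± 3.16 FPKM in the WT Mb and 14.1 ± 4.44 FPKM in the WT Fb (SD, n = 6 each).

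The wider set of neurogenic regulators did not all follow the same pattern. Olig2, a bHLH factor of ventral progenitors, was lower in the Mb (-2.74, SE 0.32). Neuron subtype factors were split, with Pou4f1 (2.51, SE 0.31), Phox2a (2.37, SE 0.32), Tlx3 (2.03, SE 0.17) and Lhx9 (1.59, SE 0.37) higher and Lhx5 lower (-2.97, SE 0.23). The repressors of neurogenesis went both ways, since Hes3 (4.12, SE 0.27), Hes5 (1.87, SE 0.22), Id2 (1.08, SE 0.09) and Id3 (0.50, SE 0.10) were higher and Hes1 (-1.14, SE 0.15), Id4 (-1.24, SE 0.29) and Hey1 (-0.56, SE 0.16) lower in the WT Mb. Among progenitor genes Fabp7, Vim, Nes and Msi1 were higher, by 0.66 to 2.23, and Pax6 was lower (-1.50, SE 0.42). The 5 tested genes of cranial ganglia and placodes, other possible sources of Neurog1 and Stmn2 RNA, were all at lower values in the Mb (median -0.58), with 2 of them past the threshold, Eya2 (-1.98, SE 0.39) among them. Genes of some other tissues were lower in the Mb as well: 5 of 5 tested surface ectoderm genes (median -1.12) and 5 of 8 cranial mesenchyme genes (median -0.85, with 1 higher) passed. Their summed levels were 26.4 to 41.0 FPKM in the WT Mb and 62.5 to 106 FPKM in the WT Fb for surface ectoderm, and 106 to 202 and 187 to 220 FPKM for cranial mesenchyme. Of the neural crest genes, 2 of 6 passed at lower values (median -0.37). None passed among 6 endothelium genes (median -0.10) and 5 red cell genes (median 0.27). The part of such tissues in the rise of the 8 genes was not tested.

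**Figure D2:**
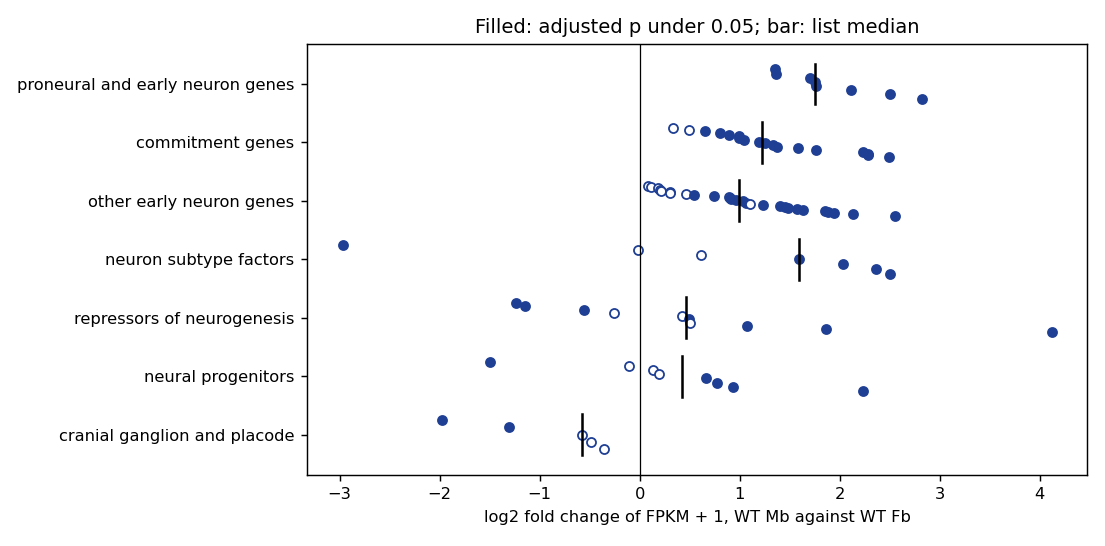
Log2 fold change of FPKM + 1 between the WT Mb and WT Fb (horizontal axis; 6 libraries each) for the tested genes of 7 lists, with filled points for an adjusted p under 0.05 and a bar at each list's median. All 8 proneural and early neuron genes are filled and lie between 1.35 and 2.82, and the commitment and other early neuron genes lie to the right of 0.

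In the mutants none of the 8 genes passed the adjusted threshold in any of the 6 comparisons with WT, while few genes of any kind did. Of all genes tested in the Mb, 0.0898% passed for TKO_Ex, 0.0903% for DKO_Ex and 0.0375% for DKO_CD, and in the Fb 0.0603%, 0.0759% and 0.0378%, respectively (limma). A count of 0 among 8 genes is thus what the background alone would leave, and the values with their intervals carry the description. At an unadjusted p under 0.05 there were 2 of 8 genes in the TKO_Ex Mb, Stmn2 and Nsg2 (1120 of 13361 over all genes), 1 in DKO_Ex, Nsg2 itself (726 of 13295), and 0 in DKO_CD (893 of 13344). Since Nsg2 had been chosen on these libraries, only Stmn2 in TKO_Ex can be set beside these shares. In the Fb there were 1 of 6 tested genes in TKO_Ex, Neurog1 (1148 of 13261 over all genes), 0 of 5 in DKO_Ex (924 of 13178) and 3 of 6 in DKO_CD, Neurog1, Neurod1 and Elavl3, all at higher values (1118 of 13240). Of these, Neurod1 cleared the filter of a mean of 1 FPKM only through its higher DKO_CD values, so that the filter favoured its place in that count. In bulk tissue, fewer neurons and less RNA per neuron cannot be told apart.

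Nsg2 was at 21.1, 18.5, 20.6, 17.0, 25.3 and 15.3 FPKM in WT Mb replicates 1 to 6. In the DKO_Ex Mb it was at 8.1, 11 and 11 FPKM, so that every DKO_Ex library lay below every WT library, and the mean was 0.511 of that in WT. The TKO_Ex Mb libraries held 8.19, 9.16, 13.3 and 16.6 FPKM, of which 3 of 4 lay under the whole WT range, with a mean of 0.601 of that in WT. In the DKO_CD Mb the 3 libraries were spread over 21.7, 9.36 and 18.6 FPKM and overlapped both sets. How many of all genes were separated from WT in these ways was not counted. The log2 differences from WT were -0.90 in DKO_Ex (SE 0.16), -0.72 in TKO_Ex (SE 0.19) and -0.30 in DKO_CD (SE 0.24), of which the first 2 restate the choice of the gene. The TKO_Ex value was -0.72 without both WT Mb replicate 5 and the library labelled TKO_Ex replicate 3, a combination added after the data were seen, whereas the DKO_CD value rested on single libraries, being -0.52 without replicate 1 and 0.05 without replicate 2. Under the grouping by record, the DKO_Ex value would be -0.30 and the DKO_CD value -0.90.

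In the Fb the ranges of Nsg2 overlapped between all groups. The libraries ran from 4.13 to 6.70 FPKM in WT, from 3.31 to 6.32 FPKM in TKO_Ex, from 4.96 to 6.07 FPKM in DKO_Ex and from 3.56 to 5.63 FPKM in DKO_CD. The log2 differences from WT were -0.09 (95% CI -0.56 to 0.37), 0.06 (95% CI -0.34 to 0.47) and -0.14 (95% CI -0.58 to 0.30), respectively. The lower Mb level thus still exceeded the Fb level of the same group: the lowest mutant Mb library, at 8.1 FPKM, was above the highest Fb library, at 6.70 FPKM.

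The other 7 genes were next set beside Nsg2 in the DKO_Ex Mb. None of their values there lay below every WT library, and 1 Neurog2 value, 15.9 FPKM, lay above every WT library. The share of all genes with values outside the WT range was not counted, so that this is a description only. Elavl3 was at 9.59, 9.01 and 9.94 FPKM in DKO_Ex against 4.84 to 12.4 FPKM in WT, a log2 fold change of 0.12 (95% CI -0.42 to 0.65). Stmn2 was at 17.4, 23.3 and 29.1 FPKM against 16.9 to 35.1 FPKM (-0.14, 95% CI -0.66 to 0.39). Both genes of newborn neurons were thus inside the WT range in the libraries where Nsg2 was below it. Neurog1 was at 15.7, 17.6 and 20.3 FPKM in DKO_Ex (-0.02, 95% CI -0.56 to 0.53), and Neurog2 was at 9.49, 15.9 and 11.1 FPKM against 6.98 to 12.3 FPKM in WT (0.35, 95% CI -0.15 to 0.84). For Neurod1 (0.00, 95% CI -0.71 to 0.71), Neurod4 (-0.11, 95% CI -0.71 to 0.50) and Dcx (-0.18, 95% CI -0.84 to 0.47) the intervals were wide. Over the 7 genes the median was -0.02, with 5 of 7 negative. Without WT Mb replicate 5, where En1 was low, it was 0.07, with 2 of 7 negative. Without DKO_Ex replicate 1 it was also 0.07, with 2 of 7 negative. It was -0.14 without WT Mb replicate 4, with 5 of 7 negative, and 0.10 without WT Mb replicate 2, with 3 of 7 negative. Since Nsg2 had been chosen for its low values in these libraries, a difference between it and the other genes was not tested.

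In the TKO_Ex Mb none of the other 7 genes passed. Their log2 differences ran from -0.52 for Stmn2 to 0.07 for Neurod4, with 6 of 7 negative and a median of -0.32, against 0.02 for all genes tested. Stmn2 had 14.4, 15.8, 14.3 and 26.7 FPKM in the TKO_Ex libraries (replicates 1 to 4), against 16.9 to 35.1 FPKM in WT. Thus 3 of the 4 libraries were below every WT library, and replicate 4 was near the WT mean of 25.9 FPKM. Among those 3 was the library labelled replicate 3, where Cdh6 was within the WT range. The share of all genes with 3 of 4 libraries below WT was not counted. The log2 fold change of Stmn2 was -0.52 (95% CI -1.03 to -0.02, limma unadjusted p = 0.0425, adjusted p = 0.586). It was -0.38 without both WT Mb replicate 5 and the library labelled TKO_Ex replicate 3. Elavl3, at 5.66, 7.70, 4.79 and 12.5 FPKM, and Dcx, at 0.621, 1.56, 1.43 and 3.27 FPKM, also had their highest value in replicate 4, within or near the top of the WT range. Their log2 fold changes were -0.24 (95% CI -0.85 to 0.37) and -0.32 (95% CI -1.01 to 0.37). Neurod1 (-0.38, 95% CI -1.04 to 0.29) and Neurog2 (-0.36, 95% CI -0.81 to 0.10) were also at negative values, whereas Neurog1 (-0.02, 95% CI -0.59 to 0.56) and Neurod4 (0.07, 95% CI -0.48 to 0.63) were near 0.

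All 8 genes had their highest TKO_Ex Mb value in replicate 4. Without that library the median over the 7 genes other than Nsg2 was -0.48, with 7 of 7 negative, and Stmn2 was at -0.73. Without WT Mb replicate 1, the lowest WT library for 4 of the 8 genes, the median was -0.41. Without TKO_Ex replicate 1 it was -0.14, with 5 of 7 negative, and without both WT Mb replicate 5 and the library labelled TKO_Ex replicate 3 it was -0.20, with 5 of 7 negative. Whether these genes moved less than Nsg2 was not tested.

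In the DKO_CD Mb all 8 genes had a negative difference, but a small one (median -0.14, from -0.30 for Nsg2 to -0.02 for Neurog1), and the 3 libraries were far apart. Replicate 1 was the highest of the 3 for each of the 8 genes, for example 32.8, 14.3 and 21.6 FPKM for Stmn2 and 12.9, 6.18 and 7.29 FPKM for Elavl3 in replicates 1 to 3. Without replicate 1 the median was -0.37, with 8 of 8 negative, and without replicate 2 it was 0.06, with 2 of 8 negative. The sum of 8 cranial mesenchyme genes was 175 to 268 FPKM in the DKO_CD Mb and 106 to 202 FPKM in the WT Mb, and that of 7 surface ectoderm genes was 24.1 to 77.3 and 26.4 to 41.0 FPKM; in DKO_CD replicate 2, where 5 of the 8 genes were lowest, both sums were at their highest. The sum of 6 forebrain identity genes was 15.6 FPKM in DKO_CD Mb replicate 1 and 1.36 and 3.97 FPKM in replicates 2 and 3. In the WT Mb it was 0.756 to 13.1 FPKM, highest in replicate 5. The part of such tissue in these values was not tested. Between the DKO_Ex and DKO_CD Mb, where 0.045% of all genes passed, 0 of the 8 genes did, and Nsg2 differed by -0.60 (95% CI -1.31 to 0.11).

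**Figure D3:**
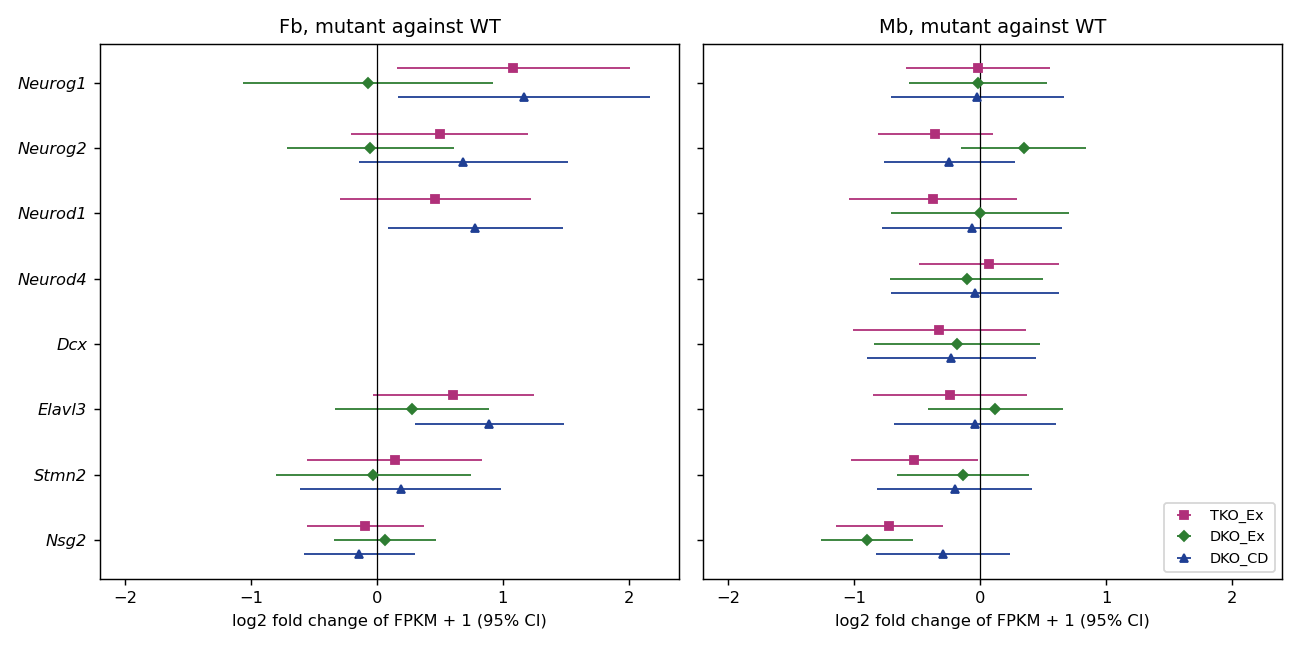
Log2 fold change of FPKM + 1 against WT (horizontal axis) with its 95% confidence interval from limma, for each gene in the Fb (left) and Mb (right) of TKO_Ex, DKO_Ex and DKO_CD; genes below the FPKM filter in a fit have no point. In the Mb the intervals of the 7 genes other than Nsg2 include 0 except that of Stmn2 in TKO_Ex (-1.03 to -0.02); Nsg2, at -0.72 in TKO_Ex and -0.90 in DKO_Ex, had been chosen for its low values there.

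The related lists were read beside these genes. In the TKO_Ex Mb 0 of 19 commitment genes and 0 of 28 other early neuron genes passed, with 16 of 19 and 19 of 28 at negative values and medians of -0.19 and -0.15, against 6232 of 13361 negative and a median of 0.02 over all genes tested. The lowest values were those of Nhlh2 (-0.70, SE 0.42) and Scrt1 (-0.62, SE 0.35) in the first list and of Stmn3, a relative of Stmn2 (-0.85, SE 0.33, limma adjusted p = 0.530), and the tau gene Mapt (-0.75, SE 0.41) in the second. For DKO_Ex the medians of the same lists in the Mb were -0.01 and -0.05, again with 0 genes past the threshold, and for DKO_CD they were -0.01 and -0.03. The 7 tested neuron subtype factors had Mb medians of -0.30 in TKO_Ex, -0.20 in DKO_Ex and -0.25 in DKO_CD. Over all genes tested the medians were 0.02, 0.03 and 0.02. Of these 7 factors, 7, 5 and 5 were negative, respectively, and 0 passed. Nsg1, the closest relative of Nsg2 measured here, was at -0.10 (SE 0.15) in the TKO_Ex Mb and -0.01 (SE 0.18) in the DKO_Ex Mb. The sum of 8 cranial ganglion and placode genes overlapped in all Mb groups, at 11.9 to 29.7 FPKM in WT, 14.7 to 26.3 FPKM in TKO_Ex, 16.9 to 19.5 FPKM in DKO_Ex and 17.7 to 33.2 FPKM in DKO_CD, and so did that of 8 progenitor genes, at 829 to 1094, 702 to 1137, 932 to 979 and 862.5 to 1104 FPKM, respectively.

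In the Fb the values of several genes were higher in TKO_Ex and DKO_CD than in WT, with 0 past the threshold. Dcx and Neurod4, and in DKO_Ex also Neurod1, were below the filter of a mean of 1 FPKM, so that 6, 5 and 6 of the 8 genes were tested in TKO_Ex, DKO_Ex and DKO_CD. Neurod1, at a mean of 0.715 FPKM in the WT Fb, was tested in TKO_Ex and DKO_CD only through its higher means of 1.61 and 2.04 FPKM there. Neurog1 was at 2.89, 3.66, 3.03 and 13.4 FPKM in TKO_Ex and at 2.41, 11.3 and 4.26 FPKM in DKO_CD, against 0.621 to 4.0 FPKM in WT. A single library thus stood far above the rest in each group, TKO_Ex replicate 4 and DKO_CD replicate 2, and the log2 fold changes were 1.08 (SE 0.42, limma adjusted p = 0.502) and 1.17 (SE 0.45, limma adjusted p = 0.545). They were 0.64 and 0.66 without those libraries, and the TKO_Ex value was 1.25 without the library labelled TKO_Ex replicate 3, where Cdh6 was within the WT range. Neurog2 was highest in the same libraries, at 9.91 and 10.6 FPKM, where WT ran from 1.97 to 5.80 FPKM, with log2 fold changes of 0.50 and 0.68 that were 0.18 and 0.25 without them.

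The same Fb libraries were low in forebrain genes. The sum of 6 forebrain identity genes was 103 FPKM in TKO_Ex replicate 4 and 114 FPKM in DKO_CD replicate 2, against 154 to 212 FPKM in the 6 WT Fb libraries and 155 to 246 FPKM in the other TKO_Ex and DKO_CD Fb libraries. The sum of 7 surface ectoderm genes was 234 and 213 FPKM, against 62.5 to 106 FPKM in WT and up to 177 FPKM in the other mutant Fb libraries. En1 was at 0 and 0.144 FPKM in them. The part of the composition of these pieces in the Neurog1 and Neurog2 values was not tested.

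Elavl3 and Neurod4 differed from this, in that all 3 DKO_CD Fb libraries were above every WT Fb library. How many of all genes were separated in this way was not counted. Elavl3 was at 4.53, 4.69 and 3.68 FPKM against 0.978 to 3.51 FPKM in WT, a log2 fold change of 0.89 (SE 0.27, limma adjusted p = 0.417) that was 0.84 without replicate 2. Neurod4 was at 0.954, 1.32 and 1.12 FPKM against 0 to 0.716 FPKM in WT, which stands for 8 to 12 fragments against 0 to 7. Without the filter its log2 fold change was 0.73 (SE 0.18, limma adjusted p = 0.439). Neurod1 was at 0.78 (SE 0.31, limma adjusted p = 0.553), and Stmn2 (0.19, SE 0.36) and Nsg2 (-0.14, SE 0.20) were near WT. Under the grouping by record these would be the DKO_Ex values. In the DKO_Ex Fb by heading the tested genes ran from -0.07 for Neurog1 to 0.28 for Elavl3.

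Whether a mutant effect differed between the Mb and the Fb was tested directly, with the difference of both effects (Mb minus Fb). None of the 8 genes passed in TKO_Ex, DKO_Ex or DKO_CD, where 0.0149%, 0% and 0.00746% of all genes did (limma). In TKO_Ex all 8 differences were negative (median -0.75, against 0.00 for all genes, of which 6811 of 13423 were negative). Neurog1 (-1.10, SE 0.52, unadjusted p = 0.0474), Neurog2 (-0.85, SE 0.40, unadjusted p = 0.0435) and Nsg2 (-0.63, SE 0.29, unadjusted p = 0.0448) each had a limma adjusted p of 0.756. Over all genes 873 of 13423 had an unadjusted p under 0.05, and Nsg2 had been chosen on these libraries. In DKO_CD all 8 were negative too (median -0.81), against 7165 of 13397 over all genes. Elavl3 was at -0.93 (SE 0.40, limma unadjusted p = 0.0336, adjusted p = 0.990), where 647 of 13397 genes had an unadjusted p under 0.05. Without TKO_Ex replicate 4 in both tissues the first median was -0.68, again with 8 of 8 negative, whereas without DKO_CD replicate 2 the second was -0.40, with 6 of 8 negative. In DKO_Ex the median was -0.11, and the 7 genes other than Nsg2 ran from -0.16 for Elavl3 to 0.40 for Neurog2; Nsg2, chosen on these libraries, was at -0.96 (SE 0.24, limma adjusted p = 0.883).

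How the genes varied together from library to library was described after the mean of each group had been removed from log2(FPKM + 1). Over the 16 Mb libraries the median Pearson r was 0.73 among the 21 pairs of the 7 genes other than Nsg2, from 0.60 for Neurog1 with Neurod4 to 0.90 for Elavl3 with Stmn2. With Nsg2 the median was 0.48 over 7 pairs, from 0.37 for Neurod4 to 0.75 for Neurog1. In the 16 Fb libraries the medians were 0.54 and 0.32, and over all 32 libraries 0.61 and 0.39. Each point is a library, so that depth and the extent of the dissected piece are shared by all genes in it. Among 9152 genes averaging 5 FPKM or more, the genes most like Nsg2 over the 32 libraries included Otx1 (r = 0.64), a homeobox factor of the fore- and midbrain, Lmtk2 (r = 0.62), Clip3 (r = 0.62) and Gmcl1 (r = 0.62). Of the other early neuron genes above that level Neurog1 ranked 176th, Elavl3 199th, Neurog2 437th and Stmn2 669th.

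**Figure D4:**
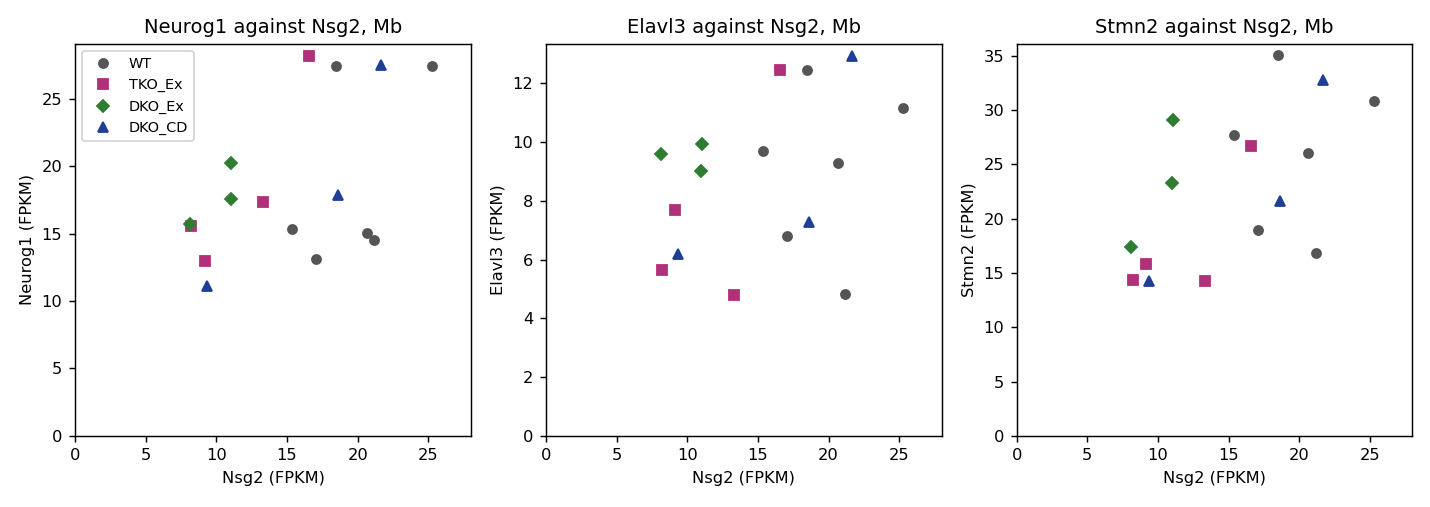
FPKM of Neurog1, Elavl3 and Stmn2 (vertical axes) against that of Nsg2 (horizontal axes) in the 16 Mb libraries, with 1 point per library and colours for WT, TKO_Ex, DKO_Ex and DKO_CD. The 3 DKO_Ex points lie left of every WT point (Nsg2 at most 11 FPKM) at heights within the WT range of each gene. Nsg2 had been chosen for its low values in these libraries.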

How the data were processed

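RNA-seq reads of dissected E9.5 tissue (strand-specific libraries) had been aligned by the authors with TopHat2 to GRCm38/mm10 and quantified with Cufflinks; the deposited FPKM values were used, and versions are not given in the sources used here. The study's own tests, with HTSeq and DESeq2 on read counts, were not repeated, because the files used hold no counts. Of 48576 identifiers, 65 repeated rows were summed. Genes averaging 1 FPKM or more in the compared libraries were tested with limma 3.58.1 (R 4.3.3) on log2(FPKM + 1), trend fitted, without covariates, 2-sided, with Benjamini-Hochberg adjustment over all genes tested at 0.05; the pseudocount of 1 understates changes of low genes. Depth was estimated from whole-fragment steps of the values in 771 genes with a single transcript, and counts of fragments are given only for members with a single transcript. The steps were tested on simulated data in which genes varied independently, with the same extra spread for every gene. That test does not cover genes that vary together between libraries. P-values measure the spread between libraries. Fb and Mb libraries were taken as independent in the main fits, although the study's methods describe taking both tissues from dissected embryos. Groups follow the column headings. Where libraries of 1 group lie above or below every library of another, the share of all genes doing so was not counted, and the statement is a description. The members, lists and comparisons were chosen with earlier results of these data known. All members are named; genes of other lists are named where they passed, or for the largest values in the TKO_Ex Mb, and among the 5 genes most like Nsg2; the mention of Nsg1 was chosen after its values were seen. Some results that the rule would name are not reported here.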

Additional observations from a re-analysis of the deposited data

Results flagged for a closer look

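In groups of 4 or 6 libraries, the highest and the lowest value of each gene were compared with the others by Dixon's ratio, in 32 groups of a gene and a tissue, and 5 stood apart; about 1 in 20 would by chance. Of these, 3 were in TKO_Ex Fb replicate 4, with Neurog1 at 13.4 FPKM (the next library at 3.66), Neurod4 at 2.49 FPKM (the next at 0.353) and Dcx at 1.02 FPKM (the next at 0.266). Stmn2 was at 26.7 FPKM in TKO_Ex Mb replicate 4, with the next at 15.8. Neurog2 was at 5.80 FPKM in WT Fb replicate 1, with the next at 3.34. No difference between a mutant effect in the Mb and in the Fb passed its test.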

How the results depend on the processing

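The number of the 8 genes past the threshold did not change in any of the 199 refits (other pseudocounts, no filter, other scalings, no trend, a joint fit, grouping by record, the replicate block, each library left out): it stayed at 8 in the WT Mb against the WT Fb and at 0 in each mutant comparison and interaction. Of the 73 values that did not pass, 46 changed sign in at least 1 refit, and of the 8 that passed, 0. The grouping by record swaps the DKO_Ex and DKO_CD libraries, so that each difference between them changed sign there by construction. These changes are part of the 46. The count over all genes moved more, in the TKO_Ex Mb from 12 to between 0 and 52 (without WT Mb replicate 1), and in the DKO_Ex Mb from 12 to between 1 and 17. With the replicate number as a replicate block, 0 of the 8 genes passed in the mutant comparisons and 8 in the WT Mb against the WT Fb, with Nsg2 at -0.71 for TKO_Ex and -0.94 for DKO_Ex in the Mb; the labels do not say that a number marks an embryo. Same-numbered Fb and Mb libraries of a group correlated at -0.03 to 0.24 (0.12 to 0.24 in DKO_Ex), and 11 of 16 correlated best with their own number, a hint of pairing from the data and not from the design, while same-numbered WT and mutant libraries of a tissue correlated at -0.14 to 0.08. The median likeness to Nsg2 of 0.39 was 0.36 without WT Mb replicate 5 and the libraries labelled TKO_Ex replicate 3. Depth limits Neurod1, Neurod4 and Dcx in the Fb, and 3 or 4 mutant libraries a group leave wide intervals.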
